A study of Mus musculus with 40 samples.

Results

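Cyp2a4, Cyp2a5, Cyp2a12, Cyp2b9, Cyp2b10 and Cyp2b13 are liver enzymes of the Cyp2a and Cyp2b subfamilies of cytochrome P450, and their transcripts were followed across sex and dose in mice given GenX. The 6 genes were taken by their symbols from the 21448 gene symbols of the assay, and every probe of them was kept, which gave 10 of its 30146 probes. Cyp2a5 had 3 probes, Cyp2a4 and Cyp2b10 had 2 each, and the other 3 genes had 1 each. All 10 probes were among the 17877 that passed the filter on low counts.

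Livers of wildtype Crl:CD1(ICR) mice, an outbred stock, came from 40 animals, 5 of each sex at each of 4 doses. Male and female mice received GenX, the ammonium salt of a fluorinated ether acid, for 90 days by oral gavage, at daily doses of 0.1, 0.5 and 5 mg per kg of body weight, and the controls of each sex (0 mg/kg) received deionized water only. Ages were not given in the labels. One fixed and embedded section of each liver was measured with TempO-Seq, in which pairs of short DNA probes are joined on their target RNA and the joined pairs are sequenced and counted.

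Cytochrome P450 enzymes are heme proteins of the endoplasmic reticulum that oxidize drugs, steroids and other foreign or endogenous molecules with electrons passed on by the reductase Por. Cyp2b10 is the classic target of the constitutive androstane receptor CAR (gene Nr1i3), which also shares targets with the pregnane X receptor PXR (Nr1i2). Cyp2a5 oxidizes coumarin and nicotine, Cyp2a4 hydroxylates testosterone, and Cyp2b9, Cyp2b13 and Cyp2a4 are known in mouse liver for higher expression in females, a difference set by the sex-specific pattern of growth hormone release that acts through STAT5B. Cyp2a12 is a steroid hydroxylase.

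The 6 genes lie on the plus strand of chromosome 7, with other Cyp2 genes and Nlrp and Vmn1r genes between them, within 1139.8 kb of the GENCODE vM21 annotation of GRCm38, and each main transcript has 9 exons. In order along the chromosome they are Cyp2b10 (chr7:25897620-25926624), Cyp2b13 (chr7:26061497-26096197), Cyp2b9 (chr7:26173411-26210661), Cyp2a4 (chr7:26307169-26315088), Cyp2a5 (chr7:26835305-26843548) and Cyp2a12 (chr7:27029081-27037375). Coding sequences without the stop codon ran from 1473 to 1482 bases. Cyp2a4 and Cyp2a5 differed at 23 of 1482 coding bases, an identity of 98.4%, and 36.1% of the 50-base windows of the Cyp2a4 transcript occurred unchanged in that of Cyp2a5. Cyp2b9 and Cyp2b13 were identical at 92.7% of coding bases and shared 10.8% of windows, counted in Cyp2b9. Pairs from different subfamilies were identical at 62.6% to 64.6% of aligned bases. The probe sequences were not used here, so whether a probe of Cyp2a4 also captures RNA of Cyp2a5, or the reverse, was not tested. Values of this pair are uncertain for that reason. The same limit holds for Cyp2b9 and Cyp2b13, and for Cyp2b10 and Cyp2b13, which shared 7.8% of windows, counted in Cyp2b10. It holds too for Cyp2a12 and the neighbouring gene Cyp2a22, which shared 27.5%, counted in Cyp2a12.

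The near identity extends to the bases in front of the genes. The windows below, from RefSeq promoters of GRCm38.p6 (6 of 6 genes matched, plus strand), end about 40 bases before the RefSeq start, and capitals mark the bases at which the 2 members of a pair differ. They are shown because the members of each pair are compared throughout.
Cyp2a4 (chr7:26306943-26307151): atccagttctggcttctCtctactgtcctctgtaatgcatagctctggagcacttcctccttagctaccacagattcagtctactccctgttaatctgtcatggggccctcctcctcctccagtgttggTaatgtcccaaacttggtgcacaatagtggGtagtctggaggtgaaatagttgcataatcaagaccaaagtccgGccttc
Cyp2a5 (chr7:26835089-26835297): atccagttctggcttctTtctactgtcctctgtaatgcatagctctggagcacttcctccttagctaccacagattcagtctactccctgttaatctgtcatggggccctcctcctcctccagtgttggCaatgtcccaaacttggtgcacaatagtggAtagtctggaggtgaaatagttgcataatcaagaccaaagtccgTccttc
Cyp2b9 (chr7:26173159-26173368): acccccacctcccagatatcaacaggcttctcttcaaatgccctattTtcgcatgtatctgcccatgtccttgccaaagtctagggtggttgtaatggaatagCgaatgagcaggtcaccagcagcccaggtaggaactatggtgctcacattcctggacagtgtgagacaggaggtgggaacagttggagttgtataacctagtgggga
Cyp2b13 (chr7:26061245-26061454): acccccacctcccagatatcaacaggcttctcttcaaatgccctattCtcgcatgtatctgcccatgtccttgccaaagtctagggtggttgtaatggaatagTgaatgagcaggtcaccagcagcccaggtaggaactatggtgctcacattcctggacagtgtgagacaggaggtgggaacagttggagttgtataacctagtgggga

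The Cyp2a pair differed at 4 of 209 bases and the Cyp2b pair at 2 of 210. Cyp2b10 matched Cyp2b9 at 75.8% of the 240 bases that could be aligned within 250 bases of the start. In windows of 300 bases (250 before to 50 after the start), searched on both strands, the C/EBP motif TTGCNNAA was found in 5 of the 6 genes and in 10.8% of all 32851 promoters. The nuclear receptor half-site AGGTCA was found in 4 of the genes (Cyp2a4, Cyp2a5, Cyp2b9 and Cyp2b13) and in 16.3% of all promoters. In Cyp2a4 and Cyp2a5 this half-site lay after the start. The STAT5 motif TTCNNNGAA was found in 0 of the 6 and in 8.3% of all. Cyp2a4 and Cyp2a5 hold the same matches, as do Cyp2b9 and Cyp2b13, so the 6 genes are not independent promoters. These counts are therefore no measure of enrichment. At 1 place Cyp2b10 holds the C/EBP letters while the aligned bases of Cyp2b9 and Cyp2b13 do not, shown here with the 8 bases of that place in capitals.
Cyp2b10 (chr7:25897589-25897618): aacagctgaagTTGCATAActgagtggaga
Cyp2b9 (chr7:26173339-26173368): aacagttggagTTGTATAAcctagtgggga
Cyp2b13 (chr7:26061425-26061454): aacagttggagTTGTATAAcctagtgggga
These matches describe letters and not binding.

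The 39 libraries used held 10341341 to 15562253 reads, and the library of mouse 355, a female at 0.5 mg/kg, was left out for its 6711981 reads. Reads for each captured molecule, estimated from the distribution of counts, were 21 to 45. A library so stood for an estimated 284218 to 649658 molecules, with a median of 580385 in males at 5 mg/kg and 329378 in control males. Transcripts of the Y-linked genes Ddx3y and Uty were read in 20 of 20 males and in 0 of 20 females. Hepatocyte markers were present in every group, and the 3 markers of lung club cells, another site of these enzymes, had no read in any group. The unit of level is CPM, reads relative to the TMM-scaled size of the library, and levels cannot be compared between genes because probes capture RNA with different efficiency.

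In control livers, the question was how the enzymes differ by sex before any exposure. Cyp2a4, Cyp2b9 and Cyp2b13 were far higher in control females than in control males, Cyp2b10 was 3.18-fold higher on its more counted probe, and the probes of Cyp2a5 disagreed. Of the 10 probes, 6 from 5 genes were higher in females by edgeR's quasi-likelihood test at an adjusted p below 10%, and 0 were lower. Among all probes, 3.49% were called in this comparison and 2.11% were higher in females. The median log2 difference was 2.23 over the members and 0.03 over all probes.

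Cyp2b9, a testosterone hydroxylase, was read at 82.4, 100.1, 124.6, 93.7 and 125.4 CPM in the 5 control females. The control males gave 0, 12.8, 0, 3.02 and 0 CPM. The groups did not overlap, and the log2 difference was 5.06 (SE 0.85, adjusted p = 6.32e-05). The control males held only an estimated 4.71 molecules over the group, so the size of this difference is uncertain. Cyp2b13 had no read in any of the 5 control males, and its levels in control females were 15.98, 14.9, 23.1, 2.70 and 11.8 CPM. With a floor of 3 molecules over the male group, it was at least 7.17-fold higher in females, with an estimated 28.7 molecules over the 5 females.

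Cyp2a4 was read on its more counted probe, Cyp2a4_30021, at 162.1, 268.9, 146.7, 408.4 and 288.1 CPM in control females. In control males it was at 0.074, 5.37, 45.3, 60.8 and 38.2 CPM, so that the groups did not overlap. The log2 difference was 3.09 (SE 0.61, adjusted p = 0.000807), and probe Cyp2a4_75821 gave 2.78 (SE 0.53, adjusted p = 0.000545). Males 101 and 102, the first 2 values, lay below the other control males.

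Cyp2a5 gave a log2 difference between control females and males of 1.36 on its most counted probe Cyp2a5_70019 (SE 0.50, adjusted p = 0.181), 0.36 on probe Cyp2a5_31713 (adjusted p = 1) and 2.21 on probe Cyp2a5_75177 (adjusted p = 0.0234). The intervals of 2 SE ran from 0.35 to 2.37 for the first, from -0.66 to 1.37 for the second and from 1.04 to 3.37 for the third. Probe Cyp2a5_70019 was read at 50.2, 34.9, 582.7, 1078 and 369.4 CPM in control males and at 660.0, 1116, 558.8, 1876 and 1220 CPM in control females. As for Cyp2a4, males 101 and 102 were the lowest. Without these 2 mice, a choice made after seeing the data, 4 member probes remained past the threshold in place of 6 and probe Cyp2a5_75177 had an adjusted p of 0.125. The same probe missed the threshold with all 40 libraries (adjusted p = 0.204) and in a fit of only the 2 groups (0.189).

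Cyp2b10 was higher in control females on probe Cyp2b10_30803, with 120.0, 168.9, 156.6, 91.6 and 76.0 CPM, than in control males, with 65.7, 32.5, 74.6, 6.35 and 13.6 CPM. The 5 females lay above the 5 males. The log2 difference of 1.67 (SE 0.53) passed narrowly with an adjusted p of 0.0881, and the value was 0.105 with DESeq2, 0.103 with DESeq2's size factors in edgeR and 0.217 with all 40 libraries. It missed the threshold without male 102, 104 or 105 or without female 151, 152 or 153, with adjusted p from 0.125 to 0.227, and it was 0.142 without males 101 and 102. Probe Cyp2b10_71476 gave 2.25 with an adjusted p of 0.101. Cyp2a12 did not differ beyond its spread, at 87.2 ± 65.0 CPM in control males and 101.8 ± 23.4 CPM in control females (SD, n = 5 each), a log2 difference of 0.22 with an interval from -0.73 to 1.18.

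**Figure D1:**
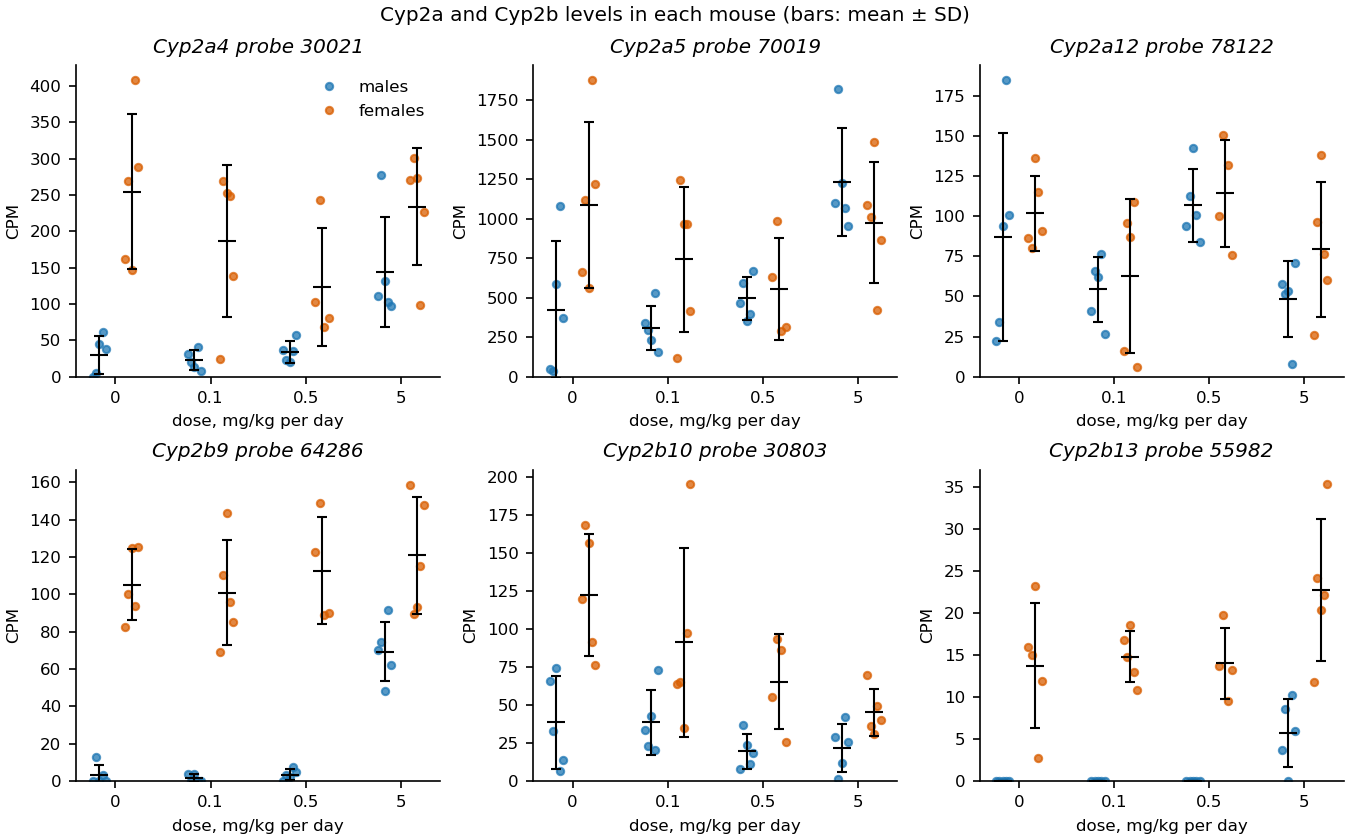
Levels in CPM (linear axes from 0) of the most counted probe of each gene, with a point for each of the 39 mice, by dose in mg/kg per day, and bars for the mean and SD of each group. Cyp2b9 lies at 48.2 to 91.5 CPM in males at 5 mg/kg, and the other males lie at or below 12.8 CPM.

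In males, the question was how the enzymes follow the dose of GenX. At 5 mg/kg, Cyp2a4, Cyp2b9 and Cyp2b13 rose, while Cyp2b10 and Cyp2a12 did not pass the test. Cyp2a5 passed as higher on probes Cyp2a5_70019 and Cyp2a5_75177 but not on Cyp2a5_31713. Both of these calls were lost without control males 101 and 102 and with all 40 libraries. Of the 10 probes, 6 were called against control males and all 6 were higher, beside 8.28% of all probes called and 4.83% called as higher. The median log2 difference of the members was 1.78, or 1.59 with Cyp2b13 at its bound, and that of all probes was 0.10. At 0.1 mg/kg, 0 of the 10 probes were called with edgeR (1 at an unadjusted p below 0.05) and 0 with DESeq2, beside 0.0336% of all probes. At 0.5 mg/kg, 0 were called with either tool and 0 had an unadjusted p below 0.05 with either, beside 2.38% of all probes.

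Cyp2b9 was read at 70.1, 74.6, 48.2, 91.5 and 62.3 CPM in the 5 males at 5 mg/kg. Levels were 1.47 ± 2.02 CPM at 0.1 mg/kg and 3.38 ± 2.84 CPM at 0.5 mg/kg (SD, n = 5 each), within the range of control males (3.16 ± 5.53 CPM). Each male at 5 mg/kg lay above each male at the lower doses, and the log2 difference to controls was 4.46 (SE 0.83, adjusted p = 0.000107). Leaving out each mouse in turn gave 4.13 to 6.50. The size of this difference is uncertain as well, given the estimated 4.71 molecules over the control males.

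Cyp2b13 had no read in any of the 15 males at 0, 0.1 or 0.5 mg/kg. At 5 mg/kg it was at 3.72, 8.49, 0, 10.2 and 5.99 CPM, an estimated 17.99 molecules over the group, so 4 of 5 males had reads and mouse 403 had none. With a floor of 3 molecules, it was at least 3.10-fold higher than in control males and at least 4.09-fold higher than at 0.5 mg/kg. The adjusted p by edgeR's test was 1.04e-06 and 2.93e-06. These p values belong to fitted differences from groups without a read, and not to the bounds. With only control males and males at 5 mg/kg in the fit, Cyp2b13 did not pass the filter on low counts. Males at 5 mg/kg also had the highest median of estimated captured molecules, and the part of depth in this result was not tested.

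Cyp2a4 on probe Cyp2a4_30021 was at 23.05 ± 13.3, 34.3 ± 14.9 and 144.2 ± 75.8 CPM in males at the 3 rising doses (SD, n = 5 each), against 29.96 ± 26.2 CPM in control males. The 5 males at 5 mg/kg gave 111.5, 277.8, 131.4, 103.4 and 97.0 CPM, all above the highest control of 60.8. The log2 difference was 2.27 (SE 0.59, adjusted p = 0.00848) on this probe and 2.22 (SE 0.52, adjusted p = 0.00275) on probe Cyp2a4_75821.

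Cyp2a5 on probe Cyp2a5_70019 was at 1098, 1821, 1224, 1068 and 952.1 CPM in males at 5 mg/kg. One control male, at 1078 CPM, lay within that range. The log2 difference was 1.54 (SE 0.51, adjusted p = 0.056), and it was 2.01 (SE 0.58, adjusted p = 0.0205) on probe Cyp2a5_75177 and 1.15 (SE 0.51, adjusted p = 0.188) on probe Cyp2a5_31713, which did not pass. Without males 101 and 102 the adjusted p was 0.341 for probe Cyp2a5_70019, whose log2 difference was then 0.87, and 0.119 for probe Cyp2a5_75177, and 4 of the 10 member probes were called, those of Cyp2a4, Cyp2b9 and Cyp2b13. Probe Cyp2a5_70019 also missed the threshold without male 101, 102, 105 or 402 alone (adjusted p from 0.118 to 0.159), and with DESeq2 (0.103).

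Cyp2a12 was at 54.4 ± 20.2, 106.9 ± 22.7 and 48.3 ± 23.7 CPM in males at the 3 rising doses (SD, n = 5 each). The log2 difference at 5 mg/kg was -0.85 with an interval of 2 SE from -1.81 to 0.11 (adjusted p = 0.318). Cyp2b10, the gene most often used as a marker of CAR activation, was at 38.6 ± 30.5 CPM in control males and 21.8 ± 15.7 CPM at 5 mg/kg on probe Cyp2b10_30803. Its log2 difference was -0.82 with an interval from -1.87 to 0.22 (adjusted p = 0.424), and -0.74 with an interval from -2.17 to 0.69 on probe Cyp2b10_71476. Activity of CAR was not tested.

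Between 0.5 and 5 mg/kg, 5 of the 10 probes were higher in males at 5 mg/kg, from the same 4 genes, beside 2.64% of all probes called. They were both probes of Cyp2a4 (log2 difference 2.07 and 2.19), probe Cyp2a5_75177 of Cyp2a5 (1.86, adjusted p = 0.0882), Cyp2b9 (4.35) and Cyp2b13. Leaving out single mice gave 3 to 4 called probes, and DESeq2 called 4. With edgeR, 8 of the 10 probes had an unadjusted p below 0.05. Among these, Cyp2a12 went the other way and was not called (adjusted p = 0.296). Its log2 difference was -1.15 with an interval from -2.11 to -0.18, and each male at 5 mg/kg lay below each at 0.5 mg/kg.

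In females the same doses were compared with control females. At 5 mg/kg, 0 of the 10 probes were called with edgeR (1 at an unadjusted p below 0.05) and 0 with DESeq2, beside 3.66% of all probes. At 0.5 mg/kg, 0 were called with edgeR and DESeq2, and 0 had an unadjusted p below 0.05, beside 0.213% of all probes. At 0.1 mg/kg, 0 were called with edgeR and DESeq2, and 0 had an unadjusted p below 0.05, beside 0% of all probes. Between 0.5 and 5 mg/kg in females, 0 were called with both tools and 0 had an unadjusted p below 0.05 with either, beside 1.23% of all probes.

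Cyp2b10 gave the one low unadjusted p in females at 5 mg/kg. On probe Cyp2b10_30803 it was at 69.6, 36.4, 30.6, 49.1 and 39.8 CPM, below the 5 control females, of which the lowest was at 76.0. The log2 difference was -1.44 with an interval from -2.50 to -0.39 (unadjusted p = 0.00865, adjusted p = 0.18). Means were 91.3 ± 62.3 CPM at 0.1 mg/kg (n = 5) and 65.2 ± 31.2 CPM at 0.5 mg/kg (n = 4), and neighbouring doses overlapped. Probe Cyp2b10_71476 gave -0.84 with an interval from -2.25 to 0.56. In a fit of only these 2 groups the adjusted p for probe Cyp2b10_30803 was 0.00431, and without the filter on low counts it was 0.00343.

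Cyp2b9 stayed within 100.8 to 120.9 CPM in the means of the 4 female groups, with a log2 difference of 0.20 at 5 mg/kg (interval -1.20 to 1.60). Cyp2b13 had means of 13.7 ± 7.42, 14.8 ± 3.05, 13.98 ± 4.24 and 22.7 ± 8.44 CPM from control to the highest dose (SD, n = 5 except n = 4 at 0.5 mg/kg), and the log2 difference at 5 mg/kg was 0.73 (interval -0.75 to 2.21). Cyp2a4 on probe Cyp2a4_30021 was at 254.8 ± 106.3, 186.9 ± 104.8, 123.7 ± 80.9 and 234.1 ± 80.4 CPM from control to 5 mg/kg. Cyp2a5 on probe Cyp2a5_70019 was lowest at 0.5 mg/kg as well, with 553.9 ± 324.8 CPM beside 1086 ± 525 in controls and 973.1 ± 383.5 at 5 mg/kg. The female groups of both genes overlapped at every dose. Cyp2a12 was at 62.7 ± 47.9, 114.5 ± 33.3 and 79.3 ± 41.9 CPM at the 3 doses.

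**Figure D2:**
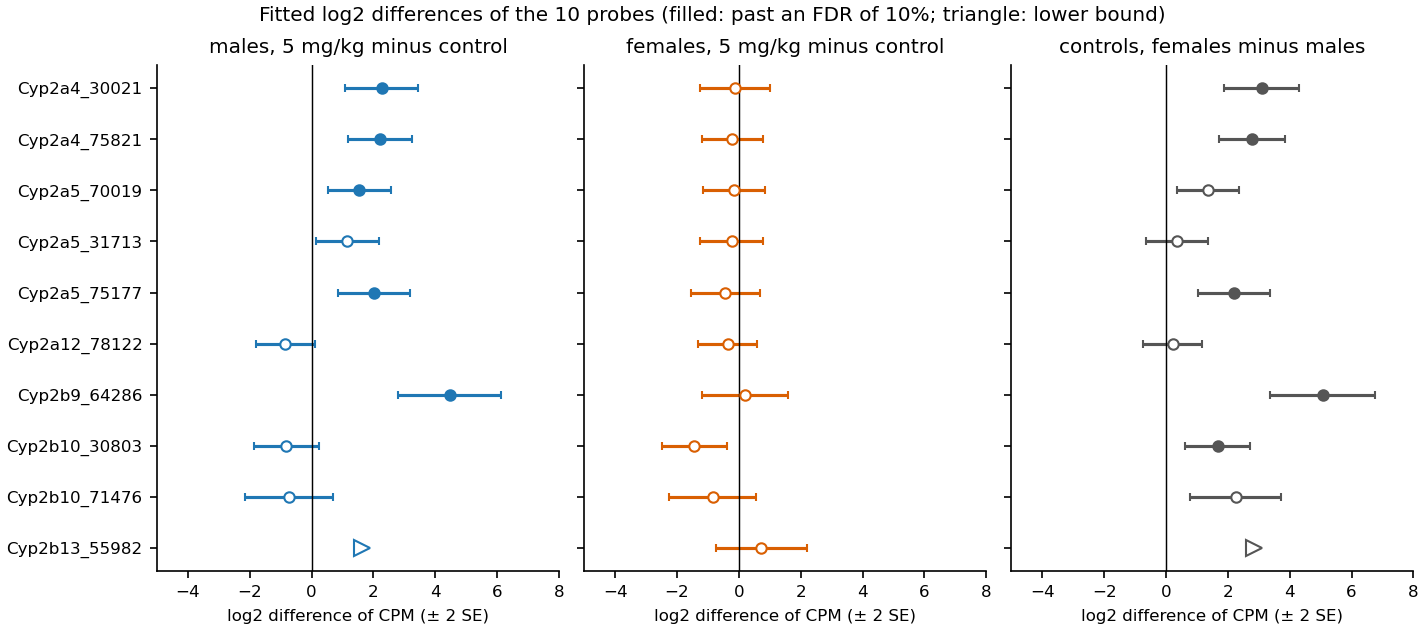
Fitted log2 differences of the 10 probes with bars of 2 SE, in males and females at 5 mg/kg against controls of their sex, and in control females against control males. Filled points passed an adjusted p of 10%, and triangles give the lower bound for Cyp2b13, which had no read in control males; 6 probes passed in males, 0 in females and 6 between controls.

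A test of the difference between the sexes asked whether the response itself differed. At 5 mg/kg, 2 of the 10 probes were called, Cyp2b9 and Cyp2b13, beside 1.04% of all probes, and the response of Cyp2b9 was lower in females. Cyp2b9 had a difference of -4.26 on the log2 scale (SE 1.05, adjusted p = 0.0374), with an adjusted p of 0.214 with DESeq2 and 0.202 with all 40 libraries. Its size depends on the few molecules of Cyp2b9 in control males. The call of Cyp2b13 (adjusted p = 0.000935) rests on control males without a read. The bound on its change in males, at least 1.63 on the log2 scale, lies within the interval of its change in females (-0.75 to 2.21), so a lower response in females was not shown for it. For Cyp2a4 the difference was -2.39 and -2.43 on the 2 probes, with adjusted p of 0.13 and 0.113, so a difference in response between the sexes was not shown for it in this fit, and without the filter on low counts the values were 0.000329 and 7.16e-05. At 0.1 mg/kg, 0 member probes were called with edgeR and DESeq2 and 0 had an unadjusted p below 0.05, beside 0% of all probes. At 0.5 mg/kg the counts were also 0 with both tools and 0 without adjustment, beside 0.274% of all probes.

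Males at 5 mg/kg were also set against females, a comparison added after seeing the data. Against control females, 2 member probes were called with edgeR (3 at an unadjusted p below 0.05), beside 7.28% of all probes. Both called probes were of Cyp2b10 and lower in the treated males. On probe Cyp2b10_30803 the log2 difference was -2.49 (SE 0.55, adjusted p = 0.00121). Cyp2b9 in treated males differed by -0.60 with an interval from -2.01 to 0.80, Cyp2a4 by -0.82 with an interval from -1.95 to 0.31, and Cyp2a5 on probe Cyp2a5_70019 was higher by 0.18 with an interval from -0.81 to 1.17. Cyp2b13 differed by -1.27 with an interval from -2.77 to 0.23, and probe Cyp2a5_31713 by 0.79 with an interval from -0.22 to 1.81. These intervals do not show that the levels are alike. Cyp2a12 was not called (adjusted p = 0.214 by edgeR's test), but each treated male lay below each control female. Its log2 difference was -1.07 with an interval from -2.04 to -0.11. Between females and males at 5 mg/kg, 0 member probes were called with edgeR (2 at an unadjusted p below 0.05), beside 1.86% of all probes. DESeq2 was not run on these added comparisons. Probe Cyp2b10_71476 lay in these females between 11.8 and 37.9 CPM, above the 5 males, of which the highest was at 11.4 (log2 difference 2.14, adjusted p = 0.197). Cyp2b13 lay in these females between 11.8 and 35.3 CPM, above each of the 5 males, of which the highest was at 10.2 (log2 difference 2.00, adjusted p = 0.299).

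The probes of Cyp2a5 were compared with each other because paralogs can share reads. The ratio between probes of 1 gene was compared between groups. What sets this ratio was not tested, since the probe sequences were not used. The log2 ratio of probe Cyp2a5_31713 to probe Cyp2a5_70019 was 0.155 ± 0.386 in control males and -1.067 ± 0.373 in control females (SD, n = 5 each), so that the first probe stood at 111.3% of the second in males and at 47.7% in females. The 5 females lay below the 5 males. The difference of -1.222 had p = 0.00794 in a two-sided exact permutation test, the smallest p that 5 against 5 allow, and 0.0795 after Benjamini-Hochberg adjustment over the 15 ratios and comparisons tested. In males at 5 mg/kg the ratio was -0.497 ± 0.186, a difference from control males of -0.652 (exact permutation p = 0.0159, adjusted 0.0795). In females at 5 mg/kg it was -1.232 ± 0.331, and the difference from control females was -0.165 (exact permutation p = 0.476). Males at the lower doses had means of -0.352 at 0.1 mg/kg and -0.206 at 0.5 mg/kg.

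**Figure D3:**
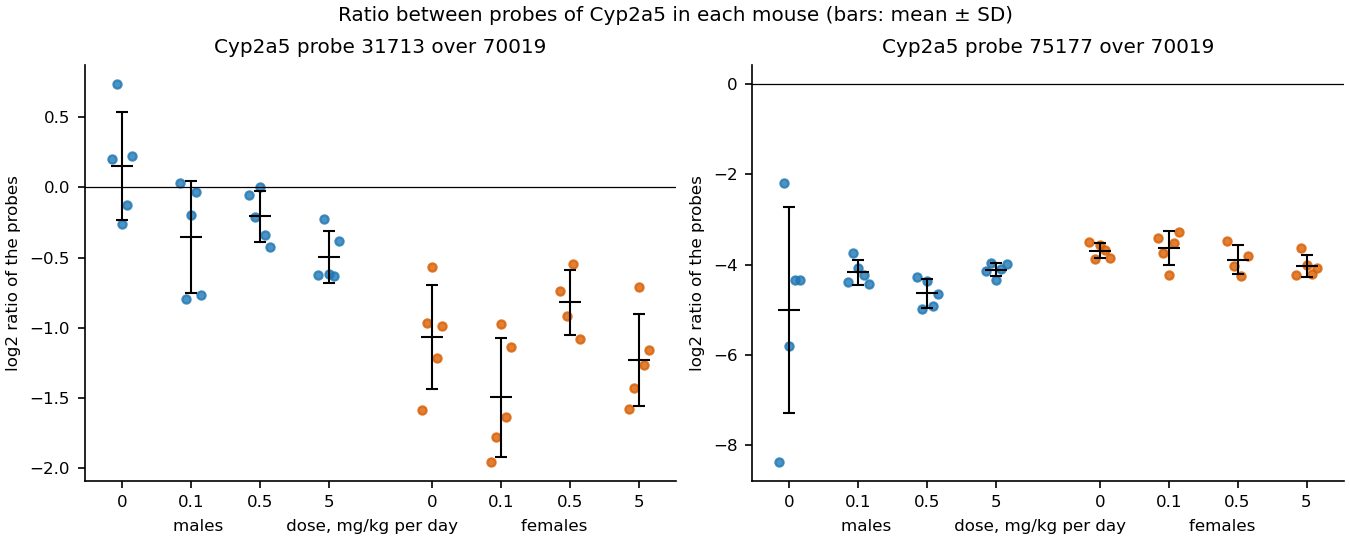
Log2 ratio of Cyp2a5_31713 to Cyp2a5_70019 (left) and of Cyp2a5_75177 to Cyp2a5_70019 (right) in each mouse, by sex and dose in mg/kg per day, with bars for the mean and SD. The left ratio has a mean of 0.155 in control males, -0.497 in males at 5 mg/kg and -1.067 in control females.

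The ratio of probe Cyp2a5_75177 to probe Cyp2a5_70019 in control males varied widely, with 1 mouse at 0 reads on Cyp2a5_75177 and a range from -8.376 to -2.182, and gave no difference past the threshold between sexes (exact permutation p = 0.278). The ratio of Cyp2a5_75177 to Cyp2a5_31713 was -5.163 ± 2.128 in control males and -2.629 ± 0.449 in control females (SD, n = 5 each). This difference of 2.534 passed (exact permutation p = 0.0159, adjusted 0.0795), and the groups overlapped. Its size is uncertain, since control male 101, with 0 reads on Cyp2a5_75177, had a ratio of -8.577. The ratio of the 2 probes of Cyp2b10 was -1.736 ± 0.153 in control females and -1.184 ± 0.435 in females at 5 mg/kg (exact permutation p = 0.0317, adjusted 0.119). The ratio of the 2 Cyp2a4 probes did not pass in any of 3 comparisons (exact permutation p of 0.143, 0.556 and 0.627). In control males it was 0.619 ± 1.974 (SD, n = 5), with mouse 101 at 4.012 from 1 read on Cyp2a4_30021. Comparisons with that group therefore do not show that the 2 probes behave alike. As a description, deviations from the group means of log2 CPM correlated over the 39 mice with r = 0.953 between Cyp2a5_70019 and Cyp2a5_31713, 0.915 between Cyp2a4_75821 and Cyp2a5_70019, 0.577 between Cyp2a12 and Cyp2a5_70019, 0.508 between the Cyp2b10 probes and -0.327 between Cyp2b10_30803 and Cyp2a5_70019. Cyp2b9 and Cyp2b13 gave r = 0.072. These values share library and depth.

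Other Cyp2 genes, regulators and targets were counted from lists. Of 8 other Cyp2 genes listed, 3 passed the filter (Cyp2a22, Cyp2f2 and Cyp2s1, the last not called). Cyp2a22, whose coding sequence is 97.0% identical to that of Cyp2a12, was at 29.9 CPM (15.6 to 55.4) in males at 5 mg/kg, and at 0 in 4 of 5 control males and 2.26 CPM in the other. This rise was called (adjusted p = 0.000661), as was its higher level in control females, at 19.4 ± 20.5 CPM (adjusted p = 0.00525). Cyp2f2, an enzyme best known from lung, fell by 1.05 on the log2 scale in males at 5 mg/kg (adjusted p = 9.98e-07). Neither passed in females.

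Receptors and transcription factors were on 35 tested probes of 18 genes. In males at 5 mg/kg, 0 rose and 7 fell, with a median log2 difference of -0.37 (-0.35 with 1 probe at its bound) beside 0.10 for all probes, and in females 1, of Hnf4a, fell by 0.56. Nr1i3 itself did not pass, with -0.14 (adjusted p = 0.989) for the males and 0.03 (adjusted p = 1) for the females. Nr1i2 gave 0.50 in males (adjusted p = 0.15), and Ppara, the receptor of fatty acids and peroxisome proliferators, gave -0.48 (adjusted p = 0.353). Cebpa and Hnf4a, regulators of hepatocyte genes, gave -0.81 and -0.80 in males, and Rxra, the partner of such receptors, gave -0.35 on probe Rxra_64783, all called. Among 7 genes for electron transfer and heme supply on 14 probes, 3 probes rose in the males of the highest dose and 1 in such females. Por was at 20.4 ± 11.5 CPM in control males and 42.3 ± 11.3 CPM at 5 mg/kg (log2 difference 1.05, adjusted p = 0.0963). The median of these probes was -0.09 in males and -0.07 in females. Cyb5b, the outer mitochondrial cytochrome b5, rose by 0.52 in females (adjusted p = 0.0109).

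Other target genes of CAR and PXR moved in both directions. Of 45 tested probes from 25 genes, 8 rose and 11 fell in males at 5 mg/kg (median -0.09). Of the same probes, 5 rose and 9 fell in females (median -0.09 beside -0.01 for all probes). Ephx1, the microsomal epoxide hydrolase, rose by 1.43 (adjusted p = 5.63e-06) in the males, and the females gave 1.86 (adjusted p = 5e-08). Among the Cyp2c enzymes, Cyp2c29 went from 2225 ± 73 to 314.1 ± 118.1 CPM in males and from 1133 ± 226 to 576.8 ± 117.9 CPM in females. Cyp2c54 fell by 4.02 and Cyp2c50 fell by 3.64 in males, and Cyp2c50 fell by 1.87 in females, while Cyp2c37, Cyp2c55 and Cyp2c65 did not pass in either sex. In females, Cyp2c54 went from 1571 ± 420 CPM in controls to 534.9 ± 371.0 CPM at 5 mg/kg. Gstm2, a glutathione transferase, fell by 2.00 in females (adjusted p = 3.62e-05) and gave -0.09 in males (adjusted p = 1).

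Genes known for a sex difference were counted in the same way. Of 25 tested probes of 14 female-biased genes, 19 were higher in control females than in control males. In males at 5 mg/kg, 3 of these 25 rose and 0 fell. The male median of 0 says little, since 18 of the 25 probes had no read in at least one of the groups compared. In females 0 of the 25 rose and 10 fell (median -2.41, or -2.40 with 2 probes at their bound). Hao2, a peroxisomal hydroxyacid oxidase, had no read in the 5 control males and was at 22.8 ± 12.3 CPM in males at 5 mg/kg (adjusted p = 2.14e-06), and at 59.6 ± 42.7 CPM in control females. A1bg, a secreted plasma protein, was at 0 in the 5 control males and 1.13 ± 1.89 CPM in males at 5 mg/kg, with 3 of the 5 at 0. Cyp3a41a, a steroid-metabolizing enzyme, went from 3256 ± 597 to 356.6 ± 399.9 CPM in females at 5 mg/kg (adjusted p = 1.58e-08) and gave -0.15 in males (adjusted p = 1). Cyp3a44 fell as well in females, to 0 in all 5 from 36.5 ± 14.03 CPM.

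Of 16 tested probes of 12 male-biased genes, 11 were lower in control females. In males at 5 mg/kg, 1 rose and 8 fell (median -1.40), among them the fatty acid elongase Elovl3 (-3.32) and the oxysterol hydroxylase Cyp7b1 (-2.91). Hsd3b5, a steroid dehydrogenase, went from 6.47 ± 8.40 CPM to 0 in all 5. In females 5 rose and 1 fell (median 0). This median says little, since 5 of the 16 probes had no read in at least 1 of the groups compared. The fatty acid hydroxylase Cyp4a12a was at 149.6 ± 61.0 CPM in females at 5 mg/kg, and in control females 3 of 5 had no read and the highest was at 0.085 CPM. Cyp4a12b, its paralog, had no read in the 5 control females and was at 24.8 ± 15.99 CPM at 5 mg/kg. Gstp1, a glutathione transferase, rose by 0.69 (adjusted p = 0.0584).

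**Figure D4:**
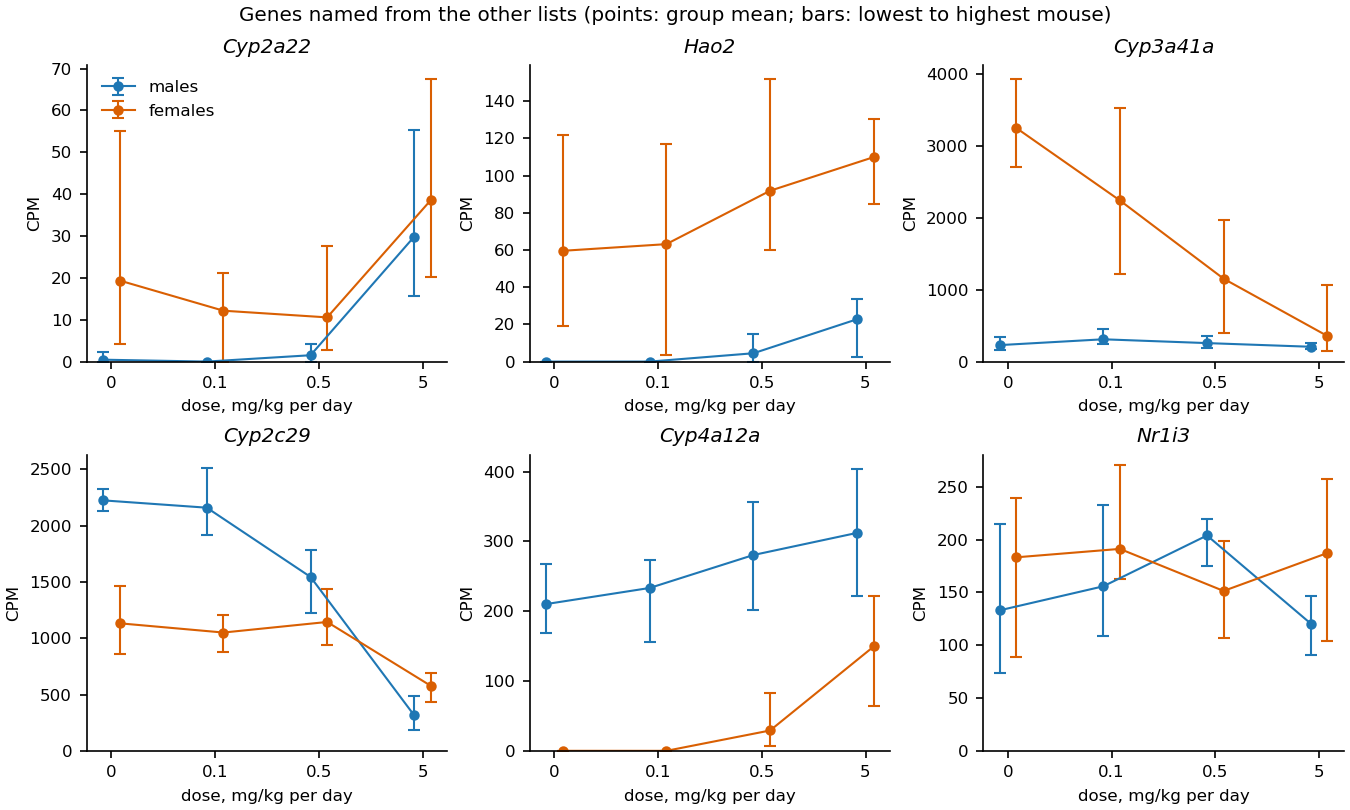
Levels in CPM (linear axes from 0) of 6 genes named from the other lists, by dose in mg/kg per day and sex, with points for group means and bars from the lowest to the highest mouse. In males, Hao2 and Cyp2a22 rise from means of 0 and 0.45 CPM in controls to 22.8 and 29.9 CPM at 5 mg/kg, Cyp2c29 falls, and Nr1i3 lies between 90.9 and 146.2 CPM at 5 mg/kg.

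Markers of liver cells moved with the treatment too. The summed level of 6 hepatocyte markers was 30316 to 37122 CPM in control males and 17946 to 24740 CPM in males at 5 mg/kg, and 4 of the 6 fell. Of 8 pericentral markers 3 fell, and of 7 periportal markers 6 fell and 1 rose, with summed levels of 2908 to 4336 CPM beside 5173 to 7996 CPM in controls for the pericentral list and 5646 to 7718 CPM beside 11087 to 14215 CPM for the periportal list. In females at 5 mg/kg, 3 of the hepatocyte, 2 of the pericentral and 4 of the periportal markers fell. Kupffer cell and lymphocyte markers gave no call in males at 5 mg/kg, 1 of 4 endothelial markers fell and 1 of 4 stellate cell markers rose, and the 4 cholangiocyte markers summed to at most 9.87 CPM in control males and 2.23 CPM at 5 mg/kg. The stellate cell markers summed to 119.5 to 136.2 CPM in males at 5 mg/kg, beside 57.3 to 110.3 CPM in control males. In females these sums overlapped, at 57.6 to 110.1 CPM at 5 mg/kg and 84.7 to 104.8 CPM in controls. The part of cell composition in the members' changes was not tested, and in bulk tissue fewer cells of a type and less RNA per cell cannot be told apart.

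The genes whose 8 group means of log2 CPM were most like those of a member were sought among 5487 genes, as a description over 8 points. For Cyp2b9 and Cyp2b13 the same gene, Hao2, came first (r = 0.99 and 0.977). The next were Cbr1 (r = 0.978) and Stambpl1 (r = 0.977) for Cyp2b9, and Pcsk5 (r = 0.96) and Stx4a (r = 0.957) for Cyp2b13. Cyp2a4 was most like Vwf, Abhd2 and Slc16a5 (r = 0.981 to 0.983), and Cyp2a5 was most like Tmem267, Rap1b and Cd9 (r = 0.966 to 0.968). Cyp2b10 was most like Ctsc, Fcna and Sdr42e1 (r = 0.971 to 0.98). Cyp2a12 was most like Cwc25, Zfp369 and AI837181 (r = 0.871 to 0.893).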

How the data were processed

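The authors lysed sections of formalin-fixed, paraffin-embedded liver, ran the whole transcriptome TempO-Seq assay and deposited raw counts (reads per probe and mouse) without normalization. The submitters' processing notes name bcl2fastq 2.17.1.14, Bowtie and the build mm10. The library of mouse 355 was left out because its total lay more than 2 SD below the mean (a limit of 9680193 reads), as in the study's methods. Counts of the other 39 libraries were scaled by TMM and tested with edgeR 4.0.16 (R 4.3.3, default filter on low counts, quasi-likelihood F-test, all 8 groups in one fit, no covariates), with Benjamini-Hochberg adjustment over 17877 probes and a threshold of 10%. Normalized levels are CPM, and log2 CPM uses a prior count of 2. The study names DESeq2, which was an alternative (1.42.0). Both were tested on simulated data. Intervals are 2 SE each side. Reads per captured molecule were not measured but estimated as the first peak of the histogram of counts smoothed with an SD of 2 reads. Reads are not independent molecules, so floors of 3 molecules cover counting error only. Each mouse is 1 animal and 1 library. Identities and motifs were computed with Biopython 1.88 and permutation tests with scipy 1.17.1. Members are all named. From each list, the 3 called genes with the largest change at 5 mg/kg in each sex were named by rule, together with Nr1i3, Nr1i2, Ppara and Por, and 1 gene so chosen is not reported here. The members and lists were chosen with earlier results of these data known.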

Additional observations from a re-analysis of the deposited data

Results flagged for a closer look

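Within groups of 4 or 5 mice, the highest or lowest value of log2 CPM lay apart from the others by Dixon's criterion in 5 of 45 groups, where chance gives about 1 in 20. For Cyp2a4 these were female 251 at 0.1 mg/kg with 24.1 CPM, male 402 at 5 mg/kg with 277.8 CPM and female 454 at 5 mg/kg with 98.2 CPM. For Cyp2a12 it was male 404 at 5 mg/kg with 8.02 CPM. For Cyp2b13 it was male 403 at 5 mg/kg with 0 CPM. The response at 5 mg/kg differed between females and males by a tested interaction for Cyp2b9, at -4.26 on the log2 scale. The interaction also passed for Cyp2b13, but its fitted value of -8.50 depends on control males without reads and is no bound, and a difference in response was not shown for it.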

How the results depend on the processing

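Counts of member probes called moved by over 1.5 times in these cases, whose causes were not tested. In males at 5 mg/kg the count was 3 in place of 6 with only the 2 groups in the fit, where Cyp2b13 did not pass the filter on low counts and both called Cyp2a5 probes missed the threshold (adjusted p of 0.187 and 0.134). In females at 5 mg/kg it was 1 in place of 0 without the filter on low counts and 1 with only the 2 groups. Between 5 and 0.5 mg/kg in males it was 8 in place of 5 without the filter and 2 with all 40 libraries. For the difference between the sexes at 5 mg/kg it was 1 in place of 2 with DESeq2, 7 without the filter and 1 with all 40 libraries. Leaving out each mouse in turn gave 5 to 7 in males at 5 mg/kg, 3 to 4 between 5 and 0.5 mg/kg in males, 5 to 7 between controls, 2 to 4 for the difference at 5 mg/kg, and 0 to 0 in the other 8 comparisons. Log2 differences changed sign when single mice were left out for uncalled probes only, in females at 5 mg/kg for Cyp2a4_30021 (-0.27 to 0.11), Cyp2a4_75821 (-0.37 to 0.10) and Cyp2a5_70019 (-0.36 to 0.13), between controls for Cyp2a12 (-0.023 to 0.70) and for the difference at 5 mg/kg for Cyp2b10_71476 (-0.43 to 0.51). Without males 101 and 102, Cyp2a5_31713 and Cyp2a12 gave -0.29 and -0.31 between controls. With all 40 libraries the adjusted p in males at 5 mg/kg was 0.149 for Cyp2a5_70019 and 0.14 for Cyp2a5_75177. All 48 group means moved by less than 1 SD with another scaling, by at most 3.88%. The median of all probes in males at 5 mg/kg was 0.10 with TMM and 0.03 with DESeq2's factors.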

Other observations

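Mouse 355, the female at 0.5 mg/kg that was left out, had an estimated 91945 captured molecules and no read on Cyp2b9, Cyp2b13, Cyp2a4_75821 or Cyp2a5_75177. Its level of Cyp2a5_70019 was 94.0 CPM, and the other 4 females at that dose ranged from 290.5 to 982.9 CPM.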
